A study of Homo sapiens with 45 samples.

Results

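The genes described here are 7 genes of vitamin D metabolism and response, chosen by symbol from the 28278 gene names of the table of 8 RNA libraries. They are the enzymes CYP24A1, CYP27B1 and CYP2R1, the receptors VDR, RXRA and RXRB, and the calcium channel gene TRPV6. CYP24A1 was picked because it was lower after HNRNPK siRNA in these same libraries, so its values in that contrast are a description without a test. The other 6 were picked for their place in the pathway, and all 7 also have values in the 2 Scramble tables.

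The data came from HCT116, an established colon cancer line. Cells were transfected with 25 nM siRNA and collected 72 hours later, either with a nontargeting siRNA or with siRNA against HNRNPK, which encodes a protein that binds C-rich single-stranded RNA and DNA. RNA came from 4 nontargeting libraries named siNTC5, 4 siHNRNPK libraries and 2 further nontargeting libraries named Scramble. No agonist of the vitamin D receptor is named in the labels for any group, and all groups grew in the same serum-containing medium. RNA of the siNTC5 and siHNRNPK libraries was purified with a Maxwell kit and that of the Scramble libraries with a Qiagen RNeasy kit. Replicates 1 and 2 of siNTC5 and siHNRNPK, and both Scramble libraries, were made with the TruSeq kit; replicates 3 and 4 of siNTC5 and siHNRNPK were made with the Ligation kit. The labels do not say whether replicates came from separate cultures, so the p-values measure the spread between these libraries, which may be technical.

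Vitamin D is first hydroxylated to calcidiol, for which CYP2R1 is a main enzyme, and then to the hormone calcitriol by CYP27B1. The hormone binds the nuclear receptor VDR, which pairs with a retinoid X receptor such as RXRA or RXRB and sits on DNA at paired hexamer half-sites. CYP24A1 breaks the hormone down and is the textbook target gene of the receptor, and TRPV6, an apical calcium channel of intestinal epithelium, is another.

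RefSeq promoter windows on GRCh38.p14 were matched for RXRA, RXRB, CYP2R1 and TRPV6. The windows used here included none for CYP24A1, CYP27B1 or VDR. The 250 bases before the outermost start are shown for RXRA on chr9:134326205-134326454 (plus strand), for CYP2R1 on chr11:14892444-14892693 (minus strand) and for TRPV6 on chr7:142885746-142885995 (minus strand). These 3 are shown because the text compares their RNA after HNRNPK siRNA and, for TRPV6, the chromatin domain it lies in. Capitals mark letters of a VDR half-site or of the C-rich heptamer CCCTCCC, searched on both strands.
RXRA promoter: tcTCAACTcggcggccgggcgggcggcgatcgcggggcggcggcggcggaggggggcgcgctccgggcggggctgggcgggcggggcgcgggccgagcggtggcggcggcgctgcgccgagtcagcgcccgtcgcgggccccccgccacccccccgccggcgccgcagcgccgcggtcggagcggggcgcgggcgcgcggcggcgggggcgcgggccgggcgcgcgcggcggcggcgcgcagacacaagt
CYP2R1 promoter: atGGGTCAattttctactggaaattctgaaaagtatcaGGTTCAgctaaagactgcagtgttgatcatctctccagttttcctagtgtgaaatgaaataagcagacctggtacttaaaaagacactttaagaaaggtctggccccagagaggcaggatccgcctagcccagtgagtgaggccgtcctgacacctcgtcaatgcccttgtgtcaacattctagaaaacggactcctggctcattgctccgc
TRPV6 promoter: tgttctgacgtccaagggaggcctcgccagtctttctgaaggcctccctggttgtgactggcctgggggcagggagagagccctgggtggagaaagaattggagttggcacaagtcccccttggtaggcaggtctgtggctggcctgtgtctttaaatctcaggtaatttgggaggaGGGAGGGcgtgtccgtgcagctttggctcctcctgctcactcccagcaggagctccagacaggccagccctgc
The half-site letters searched were AGGTCA (in 12.1% of windows), AGGTGA (in 13.7%), AGTTCA (in 8.81%), AGTTGA (in 7.02%), GGGTCA (in 12%), GGGTGA (in 14.2%), GGTTCA (in 7.16%) and GGTTGA (in 6.52%). The RXRA window held TCAACT, the reverse complement of AGTTGA, 248 bases before the start. The CYP2R1 window held GGGTCA 248 bases and GGTTCA 212 bases before the start. Windows at other starts, not printed here, gave other matches. For CYP2R1, chr11:14891672-14891921 held only TGACCC, the reverse complement of GGGTCA, and chr11:14892232-14892481 held no half-site. For RXRA, chr9:134379045-134379294 held GGGTCA. The TRPV6 window held no half-site and held GGGAGGG, the reverse complement of CCCTCCC, 73 bases before the start. No marked match overlapped another. Any of these half-sites occurred in 55.7% of 34943 RefSeq windows of the same length, so a match is common. A pair of half-sites in the same orientation with 3 bases between them, the spacing that VDR with an RXR prefers, occurred in 0.203% of windows and in none of those printed. The C-rich heptamer occurred in 24.7% of windows. A match here is a description of letters and not a bound site.

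The 8 siNTC5 and siHNRNPK libraries held 12107280 to 23633851 gene counts each, and the Scramble libraries held 59209169 and 55007171. HNRNPK itself was at 884 ± 78.0 CPM (counts scaled to library size with edgeR's trimmed mean of M values, TMM; SD, n = 4) in siNTC5 and 199 ± 45.3 in siHNRNPK (-2.17 ± 0.06 on the log2 scale, SE; adjusted p = 7.29e-15, edgeR quasi-likelihood test). Of 7 colon epithelial markers, 5 were at 10 CPM or more in all 8 libraries, among them EPCAM at 249 to 410 CPM, while CDX2 began at 9.03 CPM and VIL1 stayed at or below 0.444 CPM. The summed epithelial marker level was 2731 to 3155 CPM in siNTC5 and 4389 to 5269 CPM in siHNRNPK. Of the leukocyte markers, PTPRC stayed at or below 0.148 CPM and CD3E was at 0 counts in all 8 libraries. The fibroblast markers COL1A1, COL1A2 and DCN summed to 44.1 to 73.6 CPM in siNTC5 and 74.5 to 119 CPM in siHNRNPK, nearly all of it COL1A1, since COL1A2 and DCN stayed at or below 0.559 CPM. The endothelial markers PECAM1 and VWF summed to 0.613 to 0.945 CPM in siNTC5 and 1.28 to 3.08 CPM in siHNRNPK. These sums, like the epithelial one, did not overlap between the groups, and their part in the results was not tested. In bulk RNA, fewer cells expressing a gene and less RNA per cell cannot be told apart.

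CYP24A1, the hydroxylase that inactivates calcitriol, lies on chr20:54143538-54173986. It stood at 260, 249, 305 and 302 CPM in siNTC5 replicates 1 to 4 and at 55.8, 46.0, 44.4 and 49.0 CPM in siHNRNPK replicates 1 to 4. All 4 siHNRNPK libraries lay far below all 4 siNTC5 libraries. The means were 279 ± 28.8 and 48.8 ± 5.04 CPM (SD, n = 4), and the log2 fold change was -2.50 ± 0.07 (SE), or 5.67-fold lower. These values rest on 4386 to 5958 counts per siNTC5 library and 527 to 847 per siHNRNPK library. The remaining level was 17.5% of control over all libraries, 20.0% in the TruSeq libraries and 15.4% in the Ligation libraries. Among the 9901 tested genes with a mean log2 CPM of at least 3, its fall ranked 13, just before ENO2 at -2.46. A called fall at least as deep as that of CYP24A1 was seen in 0.38% of all 13933 tested genes.

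**Figure D1:**
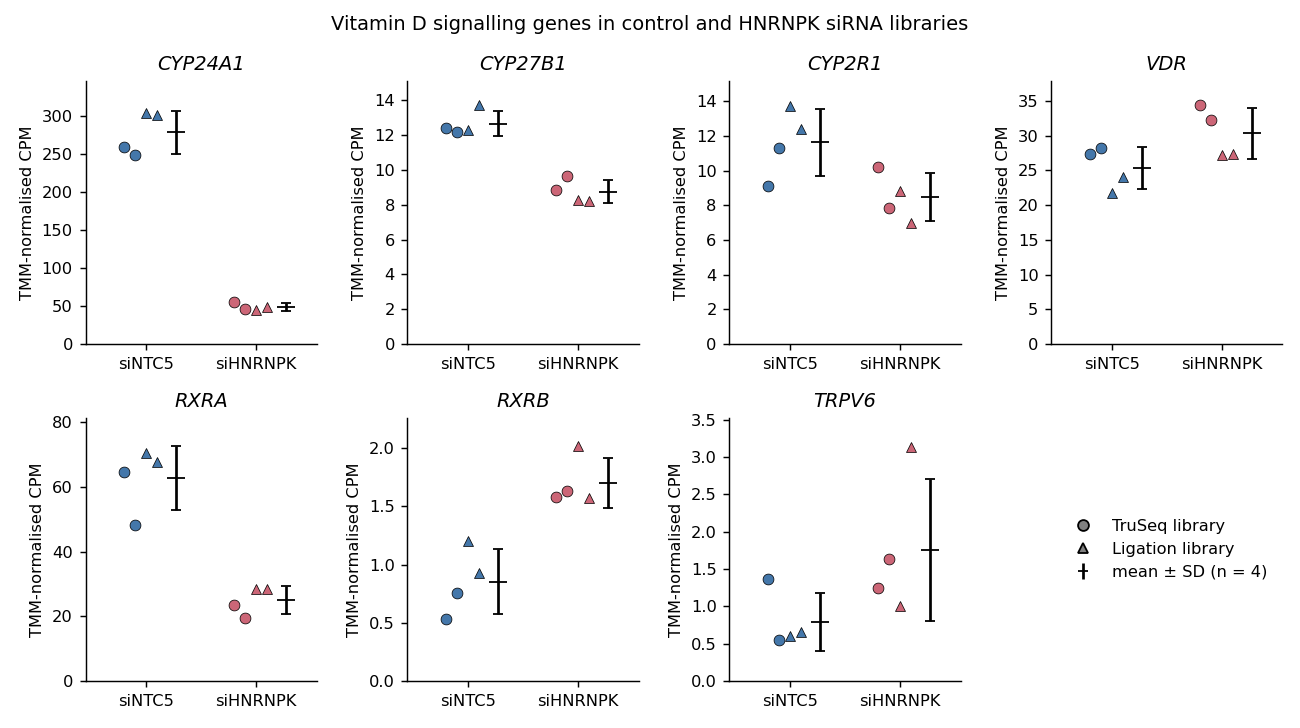
TMM-normalised CPM (y axis, linear from 0) of the 7 genes in 4 siNTC5 and 4 siHNRNPK libraries; circles are TruSeq libraries, triangles Ligation libraries, and bars the mean ± SD (n = 4). The groups are apart for CYP24A1, CYP27B1, RXRA and RXRB and overlap for CYP2R1, VDR and TRPV6.

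The enzymes that make the hormone were lower too, but by much less. CYP27B1, which makes calcitriol (chr12:57762334-57767078), was at 12.4, 12.2, 12.3 and 13.7 CPM in siNTC5 and at 8.83, 9.66, 8.26 and 8.24 CPM in siHNRNPK. Every siHNRNPK value lay below every siNTC5 value. CYP27B1 fell from 12.6 ± 0.695 to 8.75 ± 0.665 CPM (SD, n = 4), which was -0.53 ± 0.10 on the log2 scale (SE; adjusted p = 0.00014, edgeR quasi-likelihood test). Over 16 alternatives the adjusted p from edgeR or DESeq2 ranged from 1.98e-06 to 0.0401, so the call held in each.

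CYP2R1, which makes calcidiol (chr11:14877440-14892443), overlaps PDE3B, and the strand counted is not given in the sources used here, so reads from the shared stretch cannot be told apart. It was at 9.13, 11.3, 13.7 and 12.4 CPM in siNTC5 and at 10.2, 7.87, 8.85 and 7 CPM in siHNRNPK. The groups overlapped, because the first siNTC5 library lay below the first siHNRNPK library. The means were 11.6 ± 1.94 and 8.49 ± 1.38 CPM, and the log2 fold change was -0.44 ± 0.13 (adjusted p = 0.0074, edgeR). The fall was -0.72 ± 0.15 in the Ligation libraries (adjusted p = 3.06e-05, edgeR) and -0.17 ± 0.19 in the TruSeq libraries, where it did not pass (adjusted p = 0.454, edgeR). The difference between the kits was -0.54 ± 0.24 on the log2 scale (adjusted p = 0.398, edgeR).

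The receptor genes went in different directions. VDR (chr12:47841537-47904994) was at 27.3, 28.2, 21.7 and 24 CPM in siNTC5 and at 34.4, 32.3, 27.2 and 27.3 CPM in siHNRNPK. Over all libraries the groups overlapped, but within each kit both siHNRNPK libraries were above both siNTC5 libraries. VDR rose from 25.3 ± 3.0 to 30.3 ± 3.63 CPM (SD, n = 4), or by 0.26 ± 0.07 on the log2 scale (SE; adjusted p = 0.00265, edgeR). Without the term for kit the change was the same size and did not pass (adjusted p = 0.0598, edgeR). The receptor of the hormone was slightly higher in the libraries in which its textbook target CYP24A1 was lower.

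RXRA, the common heterodimer partner (chr9:134326455-134440585), had the largest tested fall of the 7. It was at 64.7, 48.2, 70.4 and 67.8 CPM in siNTC5 and at 23.5, 19.4, 28.5 and 28.4 CPM in siHNRNPK. The siHNRNPK libraries were all below the lowest siNTC5 library. RXRA fell from 62.8 ± 9.98 to 24.9 ± 4.39 CPM (SD, n = 4), to 39.7% of control, and the log2 difference was -1.33 ± 0.09 (SE; adjusted p = 1.35e-10, edgeR). The change was alike in both kits, at -1.38 ± 0.14 in TruSeq and -1.29 ± 0.08 in Ligation libraries.

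RXRB, the other retinoid X receptor of the list (chr6:33193588-33200853), was almost empty in the table of 8 libraries. It had 9, 18, 18 and 17 counts in siNTC5 and 24, 22, 24 and 19 counts in siHNRNPK. The counts were few in every library and the siHNRNPK values were the higher. In CPM the means were 0.854 ± 0.282 and 1.70 ± 0.217 (SD, n = 4), and the log2 difference was 1.01 ± 0.27 (SE; adjusted p = 0.00244, edgeR). The 2 Scramble libraries, also nontargeting controls of HCT116, held 3302 and 3026 RXRB counts, or 55.8 and 55 CPM of unscaled library totals.

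That gap was shared by the genes around RXRB, a check chosen after its counts were seen and made in CPM of unscaled library totals. Within 500 kb of RXRB lie 35 protein-coding genes of the tables, of which 21 had at least 10 CPM in both Scramble libraries. In 17 of these 21 (81.0%) the siNTC5 median was under 10% of the Scramble mean. The same was true of 12% of 418 such genes elsewhere on chromosome 6 and of 3.41% of 8453 on other chromosomes. RPS18, a ribosomal protein gene, had a median of 0.153 CPM in siNTC5 and a mean of 1542 CPM in Scramble. SLC39A7, a zinc transporter gene, had a median of 0 CPM in siNTC5 and 243 CPM in Scramble. Farther along, the levels met again, with BAK1 at 33.4 and 30.2 CPM and ITPR3 at 539 and 453 CPM in siNTC5 and Scramble. Of the 35 vitamin D pathway genes with at least 10 CPM in both Scramble libraries, RXRB was the only one with such a gap. For RXRB the change after HNRNPK siRNA therefore rests on counts far under those of the other controls, and it is given as a value only. The cause of the gap was not tested.

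**Figure D2:**
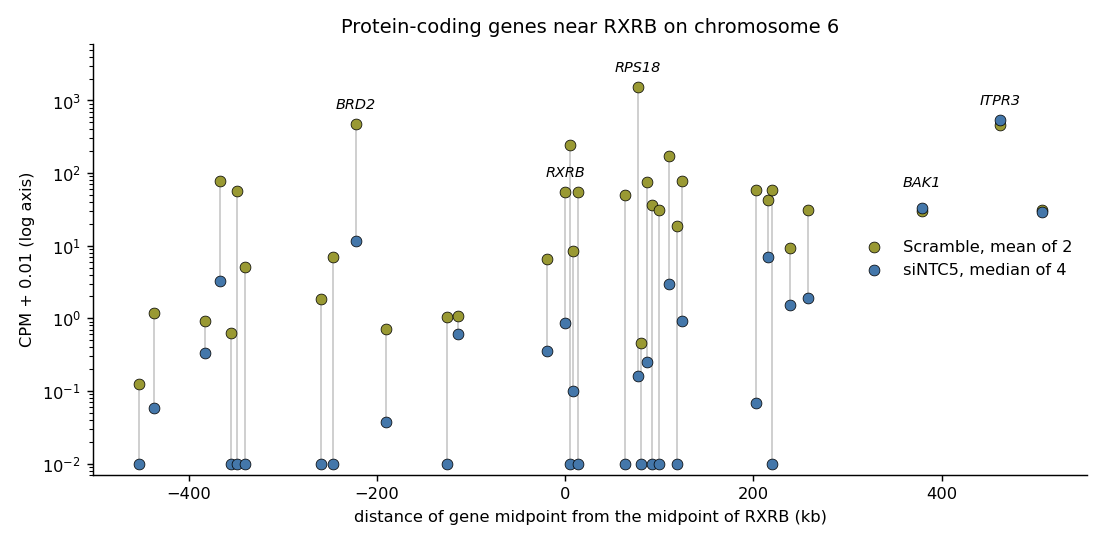
CPM + 0.01 (y axis, log scale, unscaled library totals) of 35 protein-coding genes within 500 kb of RXRB against distance of the gene midpoint from that of RXRB in kb; grey lines join the siNTC5 median and the Scramble mean of a gene. RXRB and most neighbours are far lower in siNTC5, while BAK1 and ITPR3 at the right edge are alike in both.

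TRPV6, the calcium channel gene (chr7:142871208-142885745), was at low counts throughout. It had 23, 13, 9 and 12 counts in siNTC5 and 19, 22, 12 and 38 counts in siHNRNPK, or 1.36, 0.543, 0.600 and 0.657 CPM against 1.25, 1.63, 1.01 and 3.13 CPM. The groups overlapped, with the first siNTC5 library high for its group and the fourth siHNRNPK library high above all others. The means were 0.791 ± 0.385 and 1.76 ± 0.951 CPM (SD, n = 4), and the log2 fold change was 1.15 ± 0.38 (SE; adjusted p = 0.0108, edgeR). Without the fourth siHNRNPK library it was 0.66 and did not pass (adjusted p = 0.118, edgeR), and in the TruSeq libraries alone it was 0.66 ± 0.47 (adjusted p = 0.247, edgeR).

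All 7 genes passed the adjusted threshold of 0.05 in this comparison, 3 higher and 4 lower, which for CYP24A1 follows from how it was chosen. Over all 13933 tested genes 71.5% passed, 35.5% higher and 36.1% lower, so passing is the usual outcome here and the count says little about these genes. Leaving out CYP24A1, the groups did not overlap for 3 of 6 genes, beside 56.5% of all tested genes. A call with a change of at least 1 on the log2 scale was made for 3 of these 6, RXRA, RXRB and TRPV6, beside 15.8% of all tested genes. Of these 3 only RXRA had more than 50 counts in every library, so nothing is read from that count.

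The library kit was a second axis on which the same genes could be compared. None of the 6 genes other than CYP24A1 passed the test for a different effect of HNRNPK siRNA in the 2 kits. That call was made for 18 genes, or 0.129% of those tested. At an unadjusted p under 0.05, CYP2R1 did pass. CYP24A1 was chosen for its fall in these same libraries, so its difference between the kits is a description without a test. CYP24A1 was lower in Ligation libraries (-2.71 ± 0.06) than in TruSeq libraries (-2.31 ± 0.08), a difference of -0.38 ± 0.11 on the log2 scale. HNRNPK itself differed between the kits by -0.34 ± 0.08 (adjusted p = 0.1, edgeR), at 19.6% of control in Ligation and 24.9% in TruSeq libraries. Kit, replicate number and depth of the HNRNPK fall thus go together here and cannot be told apart. The difference for CYP24A1 was -0.43 without siNTC5 replicate 1 and -0.37 without siNTC5 replicate 2, each fit leaving 1 TruSeq siNTC5 library. It was -0.40 without the filter on low counts and -0.39 with the Wald test of DESeq2. Over 11 alternatives the CYP24A1 difference ranged from -0.52 to -0.24. TRPV6 had the widest gap between kits, at 0.66 ± 0.47 and 1.70 ± 0.43, but also the widest errors (adjusted p = 0.627, edgeR).

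**Figure D3:**
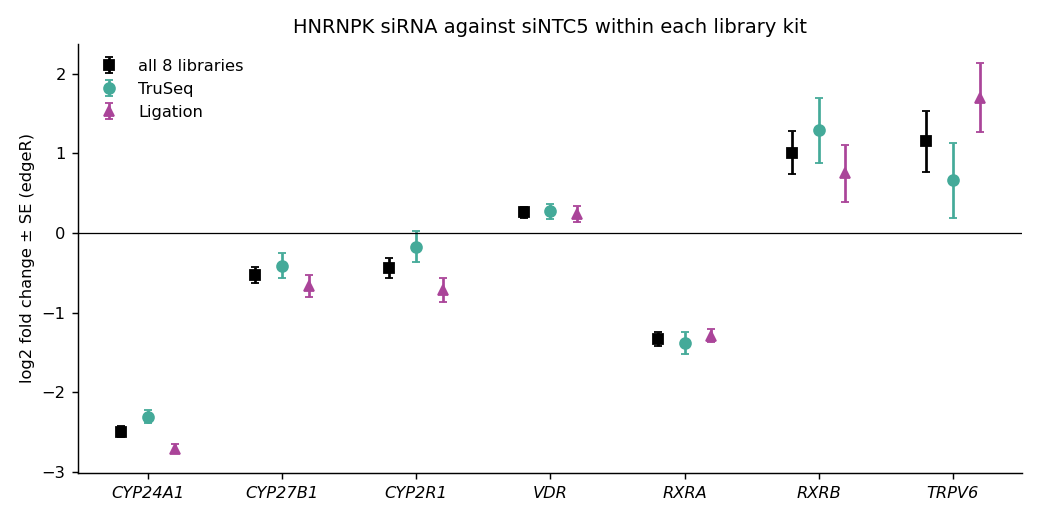
Log2 fold change ± SE from edgeR (y axis) of the 7 genes in HNRNPK siRNA against siNTC5, over all 8 libraries (squares), TruSeq alone (circles, 2 against 2) and Ligation alone (triangles, 2 against 2). Each gene keeps its sign in both kits, and the change of CYP2R1 is smaller than its SE in the TruSeq libraries.

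The Scramble libraries gave a second view of the control level, fitted against siNTC5 with kit as a term on the 25527 names shared by the tables. The purification kit, the count table and the siRNA name differ together between these sets and cannot be told apart. On the scale of all 10 libraries CYP24A1 was at 312 and 299 CPM in Scramble, 280 ± 30.1 CPM in siNTC5 (SD, n = 4) and 49.2 ± 5.07 CPM in siHNRNPK (SD, n = 4). Both control sets thus lay well above all 4 siHNRNPK libraries, and the 2 sets were 0.21 apart on the log2 scale. Of the other 6 genes 4 passed, against 68.6% of the 14263 genes tested there.

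RXRA was at 98.3 and 87.7 CPM in Scramble, above every siNTC5 library, with a log2 difference of 0.67 ± 0.11 (SE; adjusted p = 0.000129, edgeR). The 2 nontargeting sets thus differed in RXRA, and all siHNRNPK libraries were below both. CYP2R1 was at 14.3 and 12.7 CPM, a difference of 0.33 ± 0.13 (adjusted p = 0.0373, edgeR) that did not pass without siNTC5 replicate 1, 3 or 4 or without the first Scramble library (adjusted p from 0.0513 to 0.206, edgeR). TRPV6 was at 3.43 and 2.17 CPM, a difference of 1.58 ± 0.39 (adjusted p = 0.00297, edgeR). For TRPV6, 3 of the 4 siHNRNPK libraries lay below both Scramble libraries, among them both TruSeq ones, at 1.26 and 1.65 CPM. Only the fourth siHNRNPK library, a Ligation library at 3.13 CPM, lay between the Scramble values. The rise against siNTC5 was thus not seen against Scramble. The difference for TRPV6 was 0.98 without siNTC5 replicate 2 and 2.30 without siNTC5 replicate 1, and it passed in both. CYP27B1, at 14.3 and 12.8 CPM, differed by 0.09 ± 0.11 (adjusted p = 0.51, edgeR), and VDR, at 28.4 and 26.6 CPM, by -0.07 ± 0.09 (adjusted p = 0.461, edgeR). For VDR one Scramble library lay within the siNTC5 range and the other just above it, and 2 of the siHNRNPK libraries were no higher than the upper Scramble library. Those 2 were the Ligation libraries, at 27.4 and 27.3 CPM, while both Scramble libraries were made with the TruSeq kit. The TruSeq siHNRNPK libraries, at 34.7 and 32.7 CPM, lay above both Scramble libraries. RXRB differed by 6.58, as described above. The knockdown and Scramble comparisons share the siNTC5 libraries, so they are not independent of each other.

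**Figure D4:**
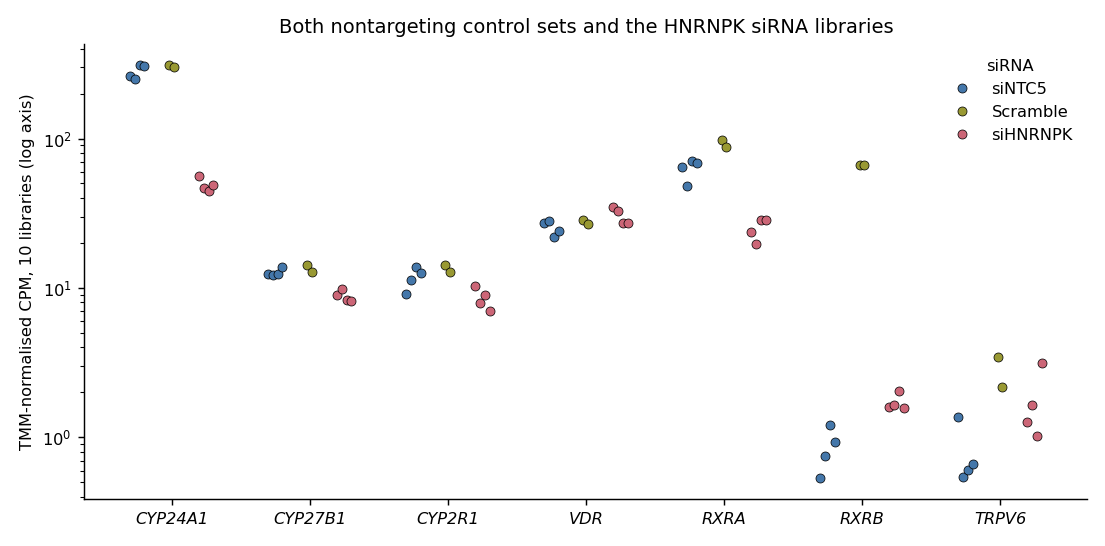
TMM-normalised CPM on the scale of all 10 libraries (y axis, log scale) of the 7 genes in siNTC5 (4 libraries), Scramble (2) and siHNRNPK (4); each point is a library. CYP24A1, CYP27B1, CYP2R1 and RXRA are above all siHNRNPK libraries in both Scramble libraries, and RXRB stands apart in Scramble alone. For TRPV6, 3 of the 4 siHNRNPK libraries are below both Scramble libraries.

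The wider pathway was read from a list of 67 genes, of which 45 passed the filter on low counts. After HNRNPK siRNA 19 rose, 19 fell and 7 did not pass, where 71.5% of all tested genes passed, 35.5% higher and 36.1% lower. The median log2 fold change was -0.06 over the 45 and -0.00 over all tested genes. Leaving out the 7 genes, 16 of 38 rose and 15 fell. Counts by role are small and are read against these same shares. Metabolism and transport genes changed in both directions, 3 higher and 4 lower of 7 tested. CYP27A1, a mitochondrial sterol hydroxylase, rose by 1.47 ± 0.24 (adjusted p = 2.63e-05, edgeR) from 12 to 22 counts per siNTC5 library to 28 to 41 per siHNRNPK library. CUBN, encoding the endocytic receptor cubilin, rose by 1.12 ± 0.15 from 3.41 ± 0.939 to 7.40 ± 0.803 CPM. CYP3A4, a drug- and steroid-metabolising enzyme with close paralogs that can share reads, rose by 3.00 ± 0.42 but from 1 to 7 counts per siNTC5 library. DHCR7, which turns the vitamin D precursor into cholesterol, fell by 0.80 on the log2 scale from 156 ± 8.36 to 89.3 ± 8.85 CPM.

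Of the coregulators, 7 of 11 rose and 2 fell, most by little. SNW1, a VDR coactivator also in the spliceosome, rose by 0.35 ± 0.04 and MED1, the Mediator subunit that contacts VDR, by 0.27 ± 0.04. NCOR1, a nuclear receptor corepressor, rose by 0.22 ± 0.05 from 67.1 ± 3.82 to 78.0 ± 2.62 CPM, with no overlap of the groups. The 2 control sets differed in NCOR1 by more than that rise, with Scramble against siNTC5 at -0.32 (adjusted p = 0.00125, edgeR). TRIM24, a nuclear receptor coregulator with a bromodomain, fell by 0.40 on the log2 scale from 36.5 ± 0.785 to 27.7 ± 1.66 CPM (adjusted p = 3.72e-05, edgeR).

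The list also holds genes of other nuclear receptors that pair with an RXR, and of 10 tested 6 fell, 2 rose and 2 did not pass, in a comparison where 36.1% of all tested genes fell and 35.5% rose. The retinoic acid receptor RARG fell by 1.07 on the log2 scale (adjusted p = 5.31e-11, edgeR), from 79.3 ± 4.53 to 37.6 ± 2.98 CPM. The peroxisome proliferator-activated receptors all fell, with log2 fold changes of -0.89 ± 0.07 for PPARG, -0.62 ± 0.07 for PPARA and -0.25 ± 0.06 for PPARD, the last of which did not pass without the kit term (adjusted p = 0.0532, edgeR) or with Scramble as added controls (adjusted p = 0.073, edgeR). The thyroid hormone receptor THRA changed by -0.55 ± 0.07 and the oxysterol receptor NR1H2 by -0.42 ± 0.10, which did not pass without the kit term (adjusted p = 0.0851, edgeR). Scramble was above siNTC5 by 1.04 for PPARA (adjusted p = 2.26e-07, edgeR), 1.01 for NR1H2 (adjusted p = 1.58e-06, edgeR) and 0.73 for PPARD (adjusted p = 5.01e-07, edgeR). In these genes the 2 control sets thus differed by more than the change after HNRNPK siRNA. THRA went the other way in Scramble, as given below. NR1H3 at -0.13 ± 0.12 (adjusted p = 0.327, edgeR) and THRB at -0.06 ± 0.17 (adjusted p = 0.783, edgeR) did not pass. RARA rose by 0.35 ± 0.06, and NR1I3, the constitutive androstane receptor, by 3.11 ± 0.25 from 4 to 16 counts per siNTC5 library to 38 to 72 per siHNRNPK library. NR1H4, RARB and NR1I2 had 5 counts or fewer in every one of the 8 libraries and were not tested.

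Of 13 tested genes reported as targets of the vitamin D receptor, 4 were higher, 6 lower and 3 not past the threshold, beside 35.5% higher and 36.1% lower among all tested genes. IGFBP3, an insulin-like growth factor binding protein, fell by 1.72 on the log2 scale from 3.05 ± 0.305 to 0.939 ± 0.340 CPM (adjusted p = 4.91e-06, edgeR). It had only 7 to 15 counts per siHNRNPK library, and Scramble was above siNTC5 by 1.12 (adjusted p = 0.000101, edgeR). SPP1, encoding osteopontin, fell by 1.42 from 2.02 ± 0.335 to 0.745 ± 0.272 CPM (adjusted p = 0.000142, edgeR), and with Scramble added to the controls it did not pass (adjusted p = 0.0826, edgeR). SPP1 had only 5 to 16 counts per siHNRNPK library. CDKN1A, the cell-cycle inhibitor p21, fell by 0.48 from 372 ± 37.0 to 267 ± 39.4 CPM. For CDKN1A the 2 control sets differed by more than that, with Scramble above siNTC5 by 0.56 (adjusted p = 8.65e-07, edgeR). CDH1, encoding E-cadherin and also one of the epithelial markers above, rose by 0.66 ± 0.05 from 99 ± 5.06 to 157 ± 9.95 CPM. Scramble also differed from siNTC5 in the direction of the knockdown for CDH1, by 0.64 (adjusted p = 4.81e-06, edgeR), and for SPP1, by -1.56 (adjusted p = 0.00117, edgeR). The same held for THRA at -0.64 (adjusted p = 1.24e-05, edgeR), TRIM24 at -0.28 (adjusted p = 0.00565, edgeR), SNW1 at 0.25 (adjusted p = 0.0031, edgeR) and RARA at 0.22 (adjusted p = 0.0336, edgeR). CYP24A1 thus had the deepest change among the listed targets and enzymes that were lower, as its choice implies. The 16 targets not tested include TRPV5, S100G and CALB1, calcium-handling genes with at most 9 counts in any of the 8 libraries.

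**Figure D5:**
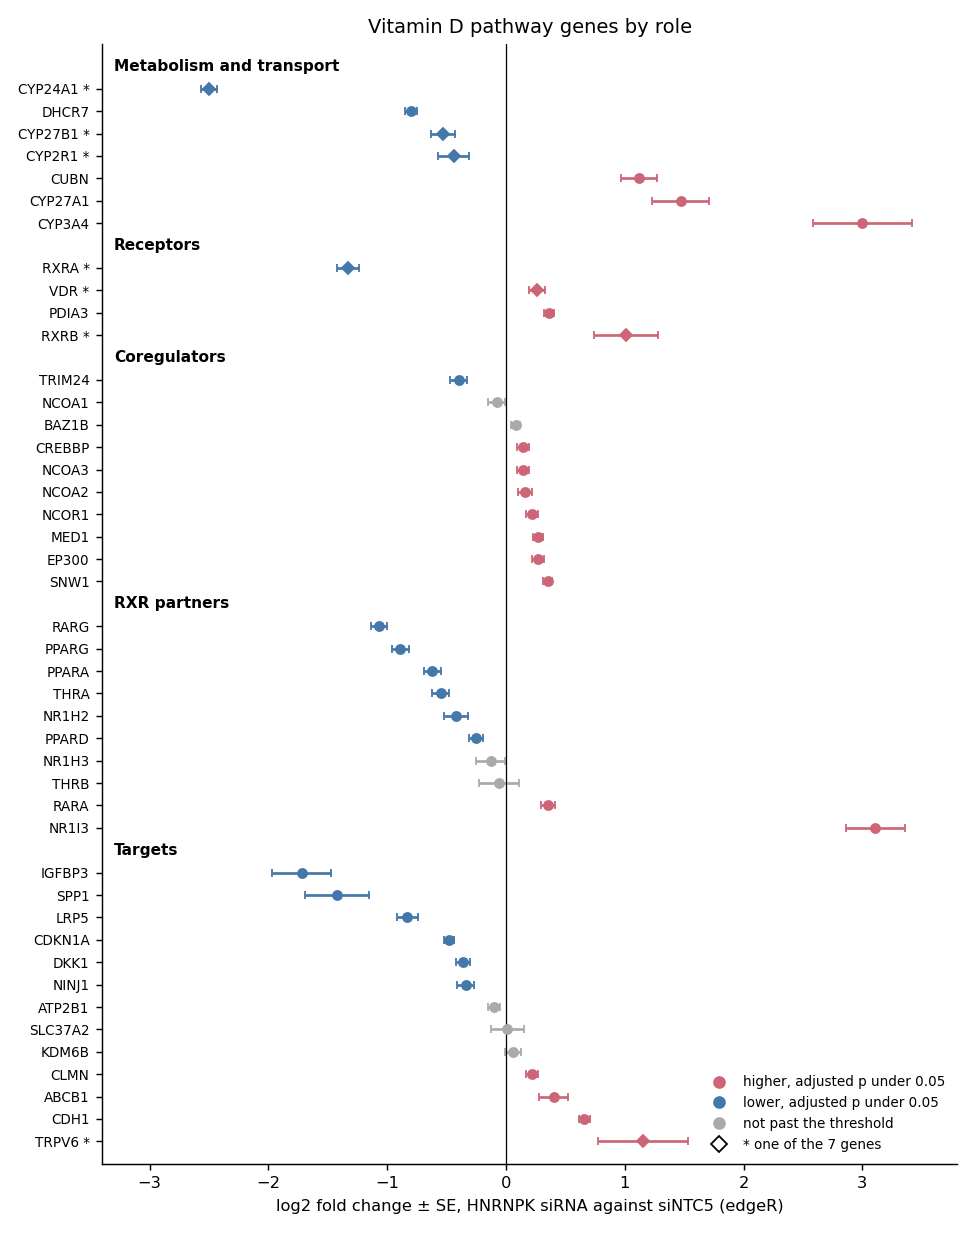
Log2 fold change ± SE from edgeR (x axis) in HNRNPK siRNA against siNTC5 for the tested genes of the vitamin D list except 1 coregulator, grouped by role; red is higher and blue lower at an adjusted p under 0.05, grey did not pass, and diamonds with an asterisk are the 7 genes. Each role holds genes on both sides of 0, from CYP24A1 at -2.50 to NR1I3 at 3.11.

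The genes around CYP24A1 were examined next. RefSeq lists 13 genes within 500 kb, of which 5 are in the table and 2 could be tested. PFDN4, a prefoldin subunit gene 34.1 kb away, was at 39.7, 34.2, 37.2 and 34.1 CPM in siNTC5 and at 44.8, 49.7, 46.9 and 46.4 CPM in siHNRNPK. It rose by 0.37 ± 0.07 (adjusted p = 6.68e-05, edgeR), opposite to CYP24A1 and with no overlap of the groups. BCAS1, 72.9 kb away on the other side, changed by 0.27 ± 0.31 at 10 to 27 counts per library (adjusted p = 0.455, edgeR). DOK5, SUMO1P1 and MIR4756 had 0 to 2 counts per library.

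The genes whose log2 CPM followed CYP24A1 most closely over the 8 libraries were ST6GALNAC6 and SREBF2 (Pearson r = 0.9992 each), MKNK1 (0.9989), ENO2 and KREMEN1 (0.9988 each). These are descriptions over 8 points that share treatment, kit and depth. SREBF2, the transcription factor of sterol synthesis, went from 426 ± 29.3 to 103 ± 9.28 CPM, and ENO2, the neuronal enolase, from 364 ± 32.3 to 65.9 ± 8.60 CPM. KREMEN1, a Wnt pathway gene, went from 71.8 ± 8.09 to 10.2 ± 0.830 CPM. ST6GALNAC6, a sialyltransferase gene, and MKNK1, a kinase gene, were lower by far less, at 66.5% and 59.9% of control. The likeness covers the pattern across libraries and not the size of the difference. CYP24A1 was chosen for its fall between these groups, so r largely follows the step between them. Other genes that were lower also had a high r, such as RARG (0.9886), PPARG (0.9845) and HNRNPK (0.9792). The share of all tested genes with such an r was not counted.

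The positions of the 7 genes were compared with 7 lists of broad chromatin domains from the same line, 1 for each antibody and siRNA. Each list stands alone without a replicate, so no test was made. The score of each domain is the authors' own, its unit is not given in the sources used here, and it is used only within its list. None of the 7 genes overlapped a domain of lamin B1, H3K9me2 or H3K9me3, marks of the nuclear lamina and of compact chromatin. In control cells 9.85% of 18871 protein-coding genes had at least 50% of their body in a lamin B1 domain, 6.48% in an H3K9me2 domain and 7.02% in an H3K9me3 domain. With 7 genes, none inside is not a measure of depletion.

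TRPV6 lay wholly within an H3K27me3 domain, the Polycomb mark of silent genes, in both conditions. The domain was chr7:142575001-143240000 with a score of 1.40 in control cells and chr7:142585001-143240000 with a score of 1.41 in siHNRNPK cells. The highest scores in those lists were 3.58 and 3.59. TRPV6 was low in RNA and inside a marked domain in both conditions. At least 50% of the body lay in such a domain for 20.2% of protein-coding genes in control cells and 18.5% in siHNRNPK cells.

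VDR was at the edge of an H3K27me3 domain in control cells, chr12:47890001-48040000, which covered 23.6% of its body with a score of 0.38. In siHNRNPK cells that domain began at 47910001, which is 5.01 kb outside VDR, and its score was 0.30. Both scores were near the bottom of their lists, which began at 0.24 and 0.28. Domain edges fall on steps of 5 kb, so the edge moved by 4 such steps, and with no replicate the move cannot be set against an error. CYP24A1 was 86.0 kb from the nearest H3K27me3 domain in both conditions. Its nearest lamin B1 domain was 311 kb away in control cells and 531 kb away in siHNRNPK cells, since the domain beginning at 54485001 in the control list began at 54705001 in the other.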

How the data were processed

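RNA was measured in 10 libraries and chromatin in 35, and groups were taken from the labels. Per the submitters' processing notes, the RNA reads were handled with STAR 2.7.1a, featureCounts and, for the table of 8 libraries, Subread 2.0.6 on hg38; the notes of the Scramble libraries name hg19 and hg38. The deposited values are raw counts per gene name, whole numbers without normalisation. The deposited domain lists carry 1 score per domain, and their caller, input handling and pooling are not given in the sources used here; the notes name bcl2fastq 2.20, fastp 0.23.2, Bowtie2 2.5.1 and deepTools 3.1.3. The strand counted is not given in the sources used here.

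The 7 genes, the 67-gene vitamin D list and the tests were chosen with earlier results of these data known. Counts of the 4 siNTC5 and 4 siHNRNPK libraries were filtered with filterByExpr, scaled by TMM and compared by the quasi-likelihood test in edgeR 4.0.16 (limma 3.58.1, R 4.3.3) with kit and treatment as terms. The Benjamini-Hochberg adjustment ran over all 13933 tested genes at a threshold of 0.05. The kit interaction and Scramble against siNTC5 used the same test. The script was tested on simulated counts. Named genes are HNRNPK, the 7 genes, listed genes past the threshold that changed by 1 or more on the log2 scale, RXR partners, genes within 500 kb of CYP24A1 and the 5 genes most like it by Pearson r among those with a mean log2 CPM of at least 3 (prior count 2); other listed genes, the genes near RXRB and the genes ranked beside CYP24A1 were named after their values were seen. Some genes that these rules or the marker lists hold are not reported here. Gene positions and promoters are from RefSeq on GRCh38.p14, and overlap was counted by base.

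Libraries with the same replicate number deviated from their group means together, with r across genes of 0.1004, 0.4246, 0.3365 and 0.2653 for numbers 1 to 4, and a fit with the number as a block was run. The numbers also follow the kit. After the kit effect was removed the correlation was 0.0582 for numbers 1 and 2 and 0.009 for numbers 3 and 4. With 2 libraries of a group in each kit, the values within a kit are equal by construction. No pair of libraries looked like a duplicate, the lowest chi-square per gene between libraries of a group being 2.18. Alternatives were the size factors and Wald test of DESeq2 1.42.0, no filter, no kit term, the block, Scramble as added controls, each kit alone, each library left out, a minimum fold change, and other limits for domains. Tables and figures were made with Python 3.11.15, pandas 2.3.3, numpy 2.4.6 and matplotlib 3.10.9.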

Additional observations from a re-analysis of the deposited data

Results flagged for a closer look

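Groups of 4 libraries were examined over the genes named. These groups share the same 8 libraries and mix 2 kits, so no chance rate is set beside the count. Of 62 such groups, 4 held a library far from the other 3. They were CYP27B1 in siNTC5 replicate 4 at 13.7 CPM, RXRB in siHNRNPK replicate 3 at 2.02 CPM, TRPV6 in siNTC5 replicate 1 at 1.36 CPM and BCAS1 in siNTC5 replicate 3 at 1.80 CPM. RXRB, TRPV6 and BCAS1 had at most 38 counts in any of the 8 libraries, while CYP27B1 had 98 to 292.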

How the results depend on the processing

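The changes of CYP24A1, CYP27B1 and RXRA after HNRNPK siRNA kept their direction under every alternative run. The number of genes called went from 9968 to 2195 with a minimum absolute log2 fold change of 1, and from 9612 to 9997 with single libraries left out; the fit with a replicate block called 9872 genes and changed no call among the named genes. With single libraries left out, log2 fold changes ranged from -2.62 to -2.44 for CYP24A1, -0.59 to -0.33 for CYP2R1, 0.23 to 0.29 for VDR, 0.89 to 1.14 for RXRB and 0.66 to 1.58 for TRPV6. CYP24A1 was -2.31 in TruSeq and -2.71 in Ligation libraries. Calls were lost for CYP2R1 in TruSeq libraries (-0.17), for VDR without the kit term (0.26), for RXRB in Ligation libraries (0.75) and for TRPV6 in TruSeq libraries (0.66) and with Scramble as added controls (0.47). RXRB turned to -2.28 with Scramble added, which brings in its far higher counts there. THRB turned to 0.00 in TruSeq libraries and ranged from -0.21 to 0.07 with single libraries left out, and BCAS1 to -0.02 in Ligation libraries. Genes called for a kit interaction numbered 239 without the filter, 72 with the Wald test of DESeq2 and 6 to 598 with single libraries left out, against 18, with the highest counts without siNTC5 replicate 2 (598) and without siNTC5 replicate 1 (364). The interaction of VDR, which did not pass, ranged from -0.10 to 0.04 and that of RXRA from -0.13 to 0.29 with single libraries left out. Counting any overlap puts 2 of the 7 genes in control H3K27me3 domains in place of 1. For these results the cause was not tested unless stated. TRPV6 had 9 to 38 counts per library, which limits its precision.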
